A study of Mus musculus with 2 samples.

Results

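The 47 genes described here encode the machinery that copies the genome before each cell division, the enzymes that supply its nucleotides, and 4 regulators of entry into S phase. They were chosen by gene symbol, and all 47 were found, each with 1 identifier, among the 55536 genes of GENCODE M21, an annotation of the mouse assembly mm10. Polyadenylated RNA was measured in whole midbrain of B6NCrl mouse embryos, male and female pooled, at 12.5 days of gestation. Replicate 1 was 1 pool of 120 embryos and replicate 2 another of 88, so differences among animals were averaged within each pool. Per the labels, both libraries started from 10 ng of RNA primed with oligo-dT, were fragmented by tagmentation and carried ERCC spike-in RNAs. They form the only group, so no treatment or genotype was compared, and comparisons run between genes, between gene lists and between the libraries.

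Each cell that enters S phase goes through the same steps. In G1 the origin recognition complex, Cdc6 and Cdt1 load the ring of Mcm2 to Mcm7 onto origins. Cdc45 and the GINS complex then join that ring to make the active helicase, primase starts each new strand, and polymerases held by the Pcna clamp extend it. Ribonucleotide reductase and the thymidylate enzymes supply the precursors. Transcription factors of the E2F family are the classical activators of many of these genes at the G1/S boundary. At this stage the ventricular zone of the midbrain holds cycling progenitors, while neurons that have left the cycle gather at its outer side.

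Annotated genes received 29056735 counts in replicate 1 and 37122445 in replicate 2. Levels are given as TPM, an abundance corrected for length, with equal totals for both libraries. Progenitor markers ran from Vim (904 and 934 TPM in replicates 1 and 2) down to Sox2 (mean 42.7 TPM). Neuron markers ran from Tubb3 (882 and 861 TPM) down to Snap25 (mean 32.7 TPM). Of the 5 midbrain markers, Otx2 (145 and 141 TPM) was high and En2 (1.14 and 1.64 TPM) was near the detection limit of 1 TPM. The median of these 5 was 5.60 TPM in replicate 1 and 8.06 TPM in replicate 2. In bulk tissue a lower share of cycling cells and less RNA per cell cannot be told apart.

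All 47 genes were expressed, with at least 1 TPM in both libraries. Their median level was 65.9 TPM in replicate 1 and 67.0 TPM in replicate 2, against 22.2 TPM over the 13083 detected protein-coding genes. In that ranking 42 of the 47 lay above the median and 31 above the 75th percentile, and the typical one stood at percentile 78.8. Rrm2, the small subunit of ribonucleotide reductase, was the highest at 334 ± 8.89 TPM (mean ± SD, n = 2, as for all such values here). Orc1, the largest subunit of the origin recognition complex, was the lowest at 8.40 ± 0.40 TPM. Together the 47 genes took 0.454% of gene counts in replicate 1 and 0.472% in replicate 2.

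**Figure D1:**
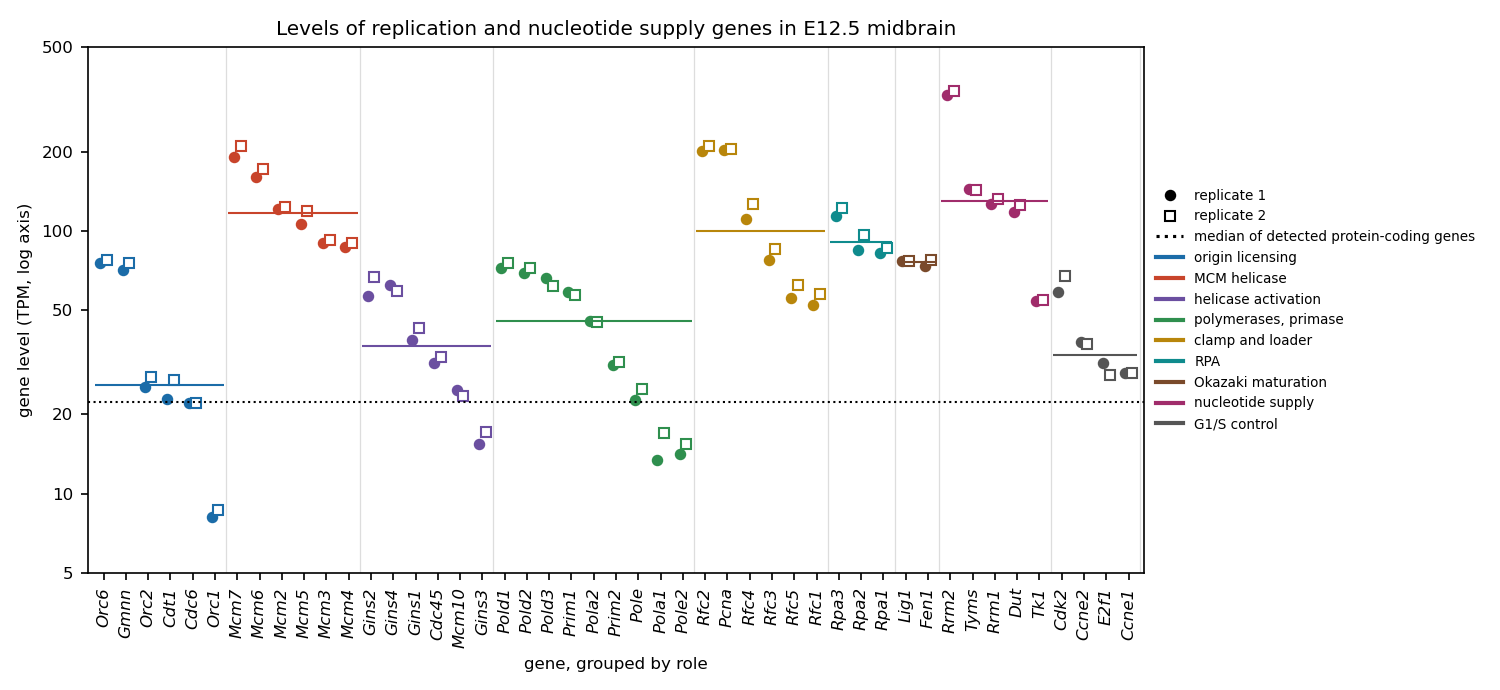
Level of each gene in TPM on a log axis, with replicate 1 as filled circles and replicate 2 as open squares; coloured lines are the medians of the role groups and the dotted line is the median of detected protein-coding genes. Nucleotide supply (129 TPM) and the MCM helicase (117 TPM) have the highest medians and origin licensing (25.8 TPM) the lowest.

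The libraries gave nearly the same picture. For 29 of the 47 genes the SD was under 5% of the mean, for 44 it was under 10%, and the median was 4.00%. Counts per gene and library ran from 345 for Orc1 in replicate 1 to 16180 for Rrm2 in replicate 2.

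The sequences around the transcription starts were read for motifs. The genes were chosen by symbol and not by motif. E2F factors are known activators of many of them, as said above, so the choice was not independent of E2F-type sites. RefSeq promoter windows (assembly GRCm38.p6), each running from 250 bases before to 50 after an annotated start, were found for 38 of the 47 genes, in 44 windows. The 4 forms of the E2F-type site searched for were TTCCCGC with its variant TTCGCGC, and TTGCCGC with its variant TTGGCGC, each read on both strands. At least 1 form occurred in 23 of the 38 genes, or 60.5%, against 19.7% of 10208 detected protein-coding genes and 10.9% of all 27025 genes of the table.

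Windows of 5 genes are shown, read 5′ to 3′ along the gene, with E2F-type matches of either strand in capitals. The first 4 belong to the highest gene with a match in each of 4 role groups; Mcm6 was added after its values were seen because it holds the most matches.
Rrm2, chr12:24708004-24708303, plus strand: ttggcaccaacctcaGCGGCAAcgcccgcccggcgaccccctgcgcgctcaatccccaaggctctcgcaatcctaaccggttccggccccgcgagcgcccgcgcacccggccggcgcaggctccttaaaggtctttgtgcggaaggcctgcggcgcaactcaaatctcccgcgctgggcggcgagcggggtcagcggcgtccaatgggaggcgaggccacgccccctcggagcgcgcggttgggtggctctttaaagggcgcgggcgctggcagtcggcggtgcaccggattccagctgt
Mcm7, chr5:138171834-138172133, minus strand: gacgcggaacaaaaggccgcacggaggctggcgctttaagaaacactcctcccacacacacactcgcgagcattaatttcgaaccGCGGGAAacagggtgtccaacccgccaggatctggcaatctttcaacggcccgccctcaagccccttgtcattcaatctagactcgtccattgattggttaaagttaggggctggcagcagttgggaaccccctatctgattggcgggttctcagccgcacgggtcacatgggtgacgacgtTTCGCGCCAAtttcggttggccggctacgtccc
Rfc4, chr16:23127681-23127980, minus strand: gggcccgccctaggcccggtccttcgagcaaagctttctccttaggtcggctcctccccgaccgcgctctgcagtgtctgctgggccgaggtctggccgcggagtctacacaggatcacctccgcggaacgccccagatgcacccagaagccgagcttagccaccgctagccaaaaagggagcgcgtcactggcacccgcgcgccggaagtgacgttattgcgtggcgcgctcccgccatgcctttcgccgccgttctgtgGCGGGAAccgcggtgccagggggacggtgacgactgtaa
Rpa3, chr6:8259092-8259391, minus strand: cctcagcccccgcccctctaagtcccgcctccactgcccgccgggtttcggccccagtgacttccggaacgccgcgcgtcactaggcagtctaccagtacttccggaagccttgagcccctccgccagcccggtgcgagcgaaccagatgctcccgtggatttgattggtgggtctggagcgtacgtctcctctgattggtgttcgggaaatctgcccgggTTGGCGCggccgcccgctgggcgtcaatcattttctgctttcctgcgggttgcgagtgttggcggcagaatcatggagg
Mcm6, chr1:128359656-128359955, minus strand: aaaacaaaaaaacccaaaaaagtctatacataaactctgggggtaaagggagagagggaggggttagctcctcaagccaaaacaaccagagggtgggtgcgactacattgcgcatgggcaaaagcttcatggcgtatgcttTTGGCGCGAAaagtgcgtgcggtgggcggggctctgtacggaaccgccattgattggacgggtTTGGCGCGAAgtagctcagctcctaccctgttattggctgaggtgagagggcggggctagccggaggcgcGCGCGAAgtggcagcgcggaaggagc

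Mcm6 held 5 matches, 4 of them in 2 overlapping pairs that each spell the same 10 letters in capitals, and the remaining match lay 24 bases after the start. In Mcm7 this window held 3 matches, 2 of them overlapping, and a second start further downstream in the gene had a window with 1 more. Rfc4 and Rpa3 each held 1 match, at positions 11 and -29 from the start. The match in Rrm2 lay at -235, near the far end of its window.

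Among the MCM genes, the match nearest the start is shown for the 4 genes that had one, read so that the motif, in capitals, runs 5′ to 3′, with 10 bases on each side.
Mcm3, chr1:20820277-20820303, plus strand: ttcccaagttTTCCCGCcacggaagtt
Mcm5, chr8:75109350-75109376, minus strand: gctggacgttTTGGCGCgaaagttctt
Mcm6, chr1:128359665-128359691, plus strand: gcgctgccacTTCGCGCgcgcctccgg
Mcm7, chr5:138171850-138171876, minus strand: gtgacgacgtTTCGCGCcaatttcggt

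Mcm2 had a window but no match, and no window was found for Mcm4. Over all 38 genes the 44 distinct matches lay at a median position of -12.5 from the nearest start, and 31 of the 44 lay between 100 bases before and 50 after it. These values count overlapping matches separately, and joining matches that overlap left 38 sites. The other genes with a match were Orc1, Cdc6 and Cdt1 of licensing, Gins3, the polymerase genes Pola1, Prim1, Pold1, Pold3 and Pole2, the loader genes Rfc1 and Rfc3, Rpa2, the nuclease and ligase genes Fen1 and Lig1, Rrm1, and Cdk2. No form was found in the windows of Orc2, Orc6, Mcm10, Cdc45, Pold2, Pola2, Pcna, Rfc5, Rpa1, Dut, Tyms, Tk1, Ccne1 and E2f1. The windows of Dut and E2f1, like those of Cdc6 and Mcm7, lay wholly inside the M21 gene body. Sequence before the 5′ end of those genes was therefore not searched, and a site there would have been missed. Searching only TTCCCGC and TTGGCGC left 20 genes with a match, or 52.6%, against 14.3% of detected coding genes.

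**Figure D2:**
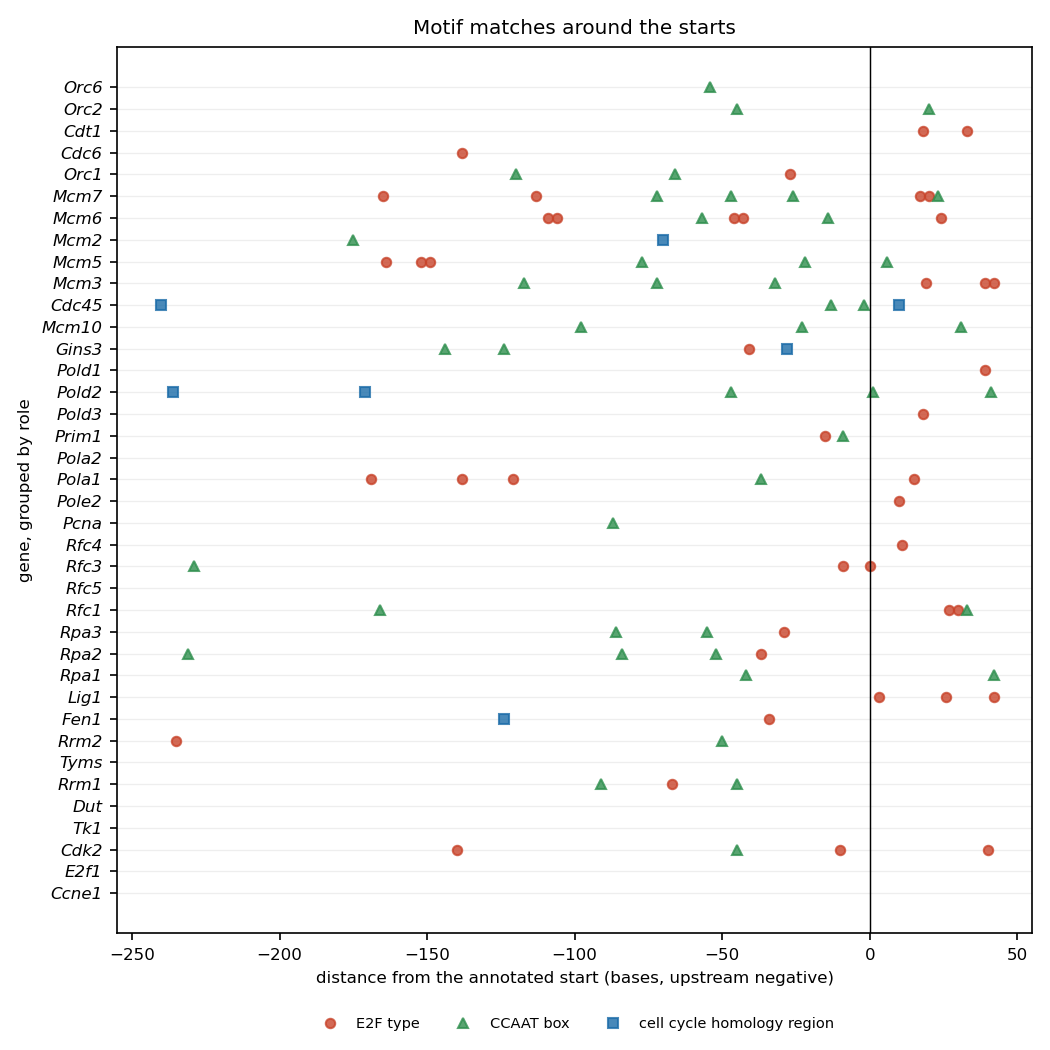
Position of each motif match, in bases from the annotated start with upstream negative, for the 38 genes with a promoter window; circles are E2F-type matches, triangles CCAAT boxes and squares the cell cycle homology region. Of the 44 E2F-type matches 31 lie from 100 bases before the start onward, a stretch that is a large part of the window.

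A pair of other cell cycle motifs was read in the same windows. CCAAT, the site of the factor NF-Y, occurred in 23 of the 38 genes (60.5%), against 43.6% of detected coding genes. TTTGAA, the core of the cell cycle homology region found at many genes of the G2 and M phases, occurred in 5 of the 38 (13.2%), close to the 13.8% of detected coding genes. The 19 mitosis genes with a window, listed with the design, differed in both: 26.3% held an E2F-type form, 84.2% a CCAAT box and 73.7% TTTGAA. Median GC content was 60.1% in the windows of the replication genes, 58.0% in those of the mitosis list and 61.2% over detected coding genes. Among 23 other replication factors with a window, 56.5% held an E2F-type form, 39.1% a CCAAT box and 13.0% TTTGAA. These matches describe letters in a window and were set against no measurement of binding.

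**Figure D3:**
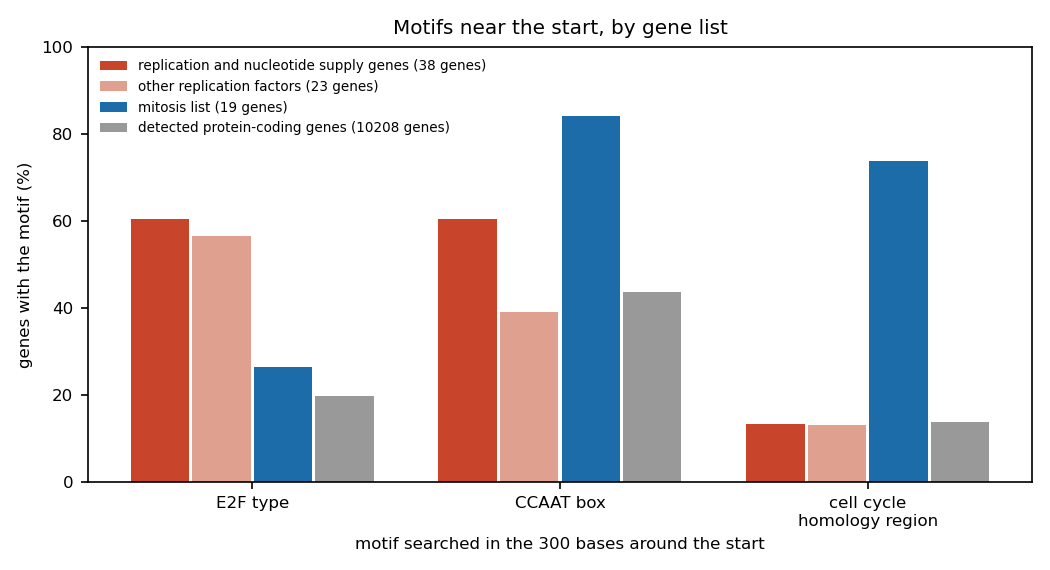
Percent of genes whose window holds each motif, for the replication and nucleotide supply genes, other replication factors, the mitosis list and detected protein-coding genes. The replication genes stand at 60.5% for the E2F type and 13.2% for the cell cycle homology region, and the mitosis list at 26.3% and 73.7%.

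Origin licensing had the lowest median of the 9 role groups, 24.2 TPM in replicate 1 and 27.5 TPM in replicate 2. Within it, levels spread 9.09-fold. Orc6, a subunit of the origin recognition complex, stood at 75.1 TPM in replicate 1 and 77.5 TPM in replicate 2. Orc2 was lower, at 25.4 and 27.8 TPM, and Orc1, the subunit whose protein is destroyed after S phase begins in mammalian cells, was at 8.12 and 8.68 TPM. The 3 remaining subunits, Orc3 (86.9 and 85.9 TPM), Orc4 (96.5 and 106 TPM) and Orc5 (27.5 and 28.5 TPM), are not among the 47 but complete the order Orc4, Orc3, Orc6, Orc5, Orc2, Orc1 from high to low by gene TPM in both libraries. The highest subunit then stood 12.0 ± 0.22 times above the lowest. Over protein-coding transcripts alone Orc6 came first and Orc1 stayed last, Orc4 stood at 26.4 TPM in replicate 1 and 26.1 TPM in replicate 2, or 26.0% of its gene TPM, and the order of Orc2 and Orc4 differed between the libraries.

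Cdc6, the ATPase that works with the origin complex to load the MCM ring, was at 22.1 TPM in replicate 1 and 22.2 TPM in replicate 2. Cdt1, its partner in loading, was at 22.95 and 27.2 TPM, and Gmnn, which encodes the Cdt1 inhibitor geminin, at 70.7 and 75.1 TPM. Cdt1 transcripts thus amounted to 0.34 ± 0.03 of those of its inhibitor.

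The MCM helicase was the most even large group. Its 6 subunits, which act as a ring with 1 copy of each, spanned 2.27 ± 0.11-fold. Mcm7 (ENSMUSG00000029730.16, chromosome 5, minus strand) was highest at 191 TPM in replicate 1 and 211 TPM in replicate 2, followed by Mcm6 at 160 and 172 TPM. Mcm2 stood at 121 and 123 TPM and Mcm5 at 106 and 119 TPM. Mcm3, at 89.6 and 92.5 TPM, and Mcm4, at 86.9 and 90.01 TPM, were lowest. The order was the same in both libraries. Mcm3 and Mcm4 changed places when only coding transcripts were summed.

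Helicase activation genes had a median of 35.0 TPM in replicate 1 and 37.9 TPM in replicate 2. Cdc45, which turns the MCM ring into a working helicase, was at 31.5 and 33.0 TPM. The GINS subunits ranged from Gins2 (56.3 and 66.5 TPM) and Gins4 (62.2 and 59.3 TPM) through Gins1 (38.5 and 42.8 TPM) to Gins3 (15.4 and 17.2 TPM). The order of Gins2 and Gins4 by gene TPM differed between the libraries. Over coding transcripts Gins4 (62.2 and 59.25 TPM) was above Gins2 (17.35 and 20.9 TPM) in both, with the order Gins4, Gins1, Gins2, Gins3. Mcm10, a factor of origin firing outside the ring, was at 24.7 TPM in replicate 1 and 23.5 TPM in replicate 2.

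The polymerases that start and extend strands were lower than the helicase and the clamp, with a median of 45.5 TPM in replicate 1 and 45.0 TPM in replicate 2. In the polymerase alpha and primase complex, which lays down the first RNA and DNA, the primase subunit Prim1 was at 58.7 and 56.9 TPM and Prim2 at 30.95 and 31.6 TPM. The accessory subunit Pola2 stood at 45.5 and 45.0 TPM. Its catalytic partner Pola1 was the lowest of the 4 in both libraries, at 13.5 TPM in replicate 1 and 17.0 TPM in replicate 2.

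Polymerase delta copies mainly the lagging strand. Its catalytic subunit Pold1 was at 71.9 TPM in replicate 1 and 75.3 TPM in replicate 2, Pold2 at 69.3 and 72.1 TPM and Pold3 at 65.9 and 61.4 TPM. These 3 stood close together, while the small subunit Pold4, not among the 47, was at 12.3 and 11.9 TPM. In polymerase epsilon, which copies mainly the leading strand, the catalytic subunit Pole was at 22.6 and 24.97 TPM and Pole2 at 14.2 and 15.4 TPM. The small histone-fold subunits of that enzyme, Pole3 (77.9 and 86.2 TPM) and Pole4 (67.5 and 78.4 TPM), were several times higher in both libraries.

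Pcna, the ring that tethers polymerases to DNA, reached 203 TPM in replicate 1 and 205 TPM in replicate 2 (ENSMUSG00000027342.14, chromosome 2, minus strand). The clamp loader opens that ring and has 5 subunits. By gene TPM Rfc2 was highest of them at 202 and 210 TPM, a value that rests on its annotated transcripts, a point taken up with the transcripts. Rfc4 followed at 111 and 127 TPM, then Rfc3 at 77.4 and 85.6 TPM. Rfc5 was at 55.65 and 62.3 TPM and the large subunit Rfc1 at 52.2 and 57.65 TPM.

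The 3 subunits of RPA, which coats single-stranded DNA at the fork, spanned 1.40 ± 0.02-fold by gene TPM and 2.12 ± 0.05-fold over protein-coding transcripts. Rpa3 was at 113 TPM in replicate 1 and 122 TPM in replicate 2, Rpa2 at 84.6 and 96.7 TPM, and Rpa1 at 82.1 and 86.35 TPM, of which 65.5% came from coding transcripts. Both enzymes that finish Okazaki fragments had nearly equal levels. The flap nuclease Fen1 stood at 73.3 and 77.55 TPM and the ligase Lig1 at 76.7 and 76.85 TPM, a difference within the spread between libraries.

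Nucleotide supply had the highest median, 127 TPM in replicate 1 and 132 TPM in replicate 2. Rrm2 (ENSMUSG00000020649.11, chromosome 12, plus strand), the S phase subunit of ribonucleotide reductase, stood at 328 and 341 TPM, and the catalytic subunit Rrm1 at 127 and 132 TPM. The ratio of Rrm2 to Rrm1 was 2.58 ± 0.01. The alternative small subunit Rrm2b, which serves quiescent cells and DNA repair, was at 8.47 and 7.36 TPM, so that Rrm2 exceeded it 42.5 ± 5.34-fold.

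Tyms, which makes thymidylate, was at 144 TPM in replicate 1 and 143 TPM in replicate 2, though few of these transcripts were coding. Dut, which keeps uracil out of DNA by hydrolysing dUTP, was at 118 and 126 TPM. The cytosolic thymidine kinase Tk1, a salvage enzyme of S phase, was the lowest of the group at 54.1 and 54.5 TPM, 1.74 ± 0.11 times its mitochondrial counterpart Tk2 (32.4 and 29.95 TPM).

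Of the 4 regulators of S phase entry, Cdk2 was highest, at 58.4 TPM in replicate 1 and 67.0 TPM in replicate 2. Its cyclins were lower, Ccne2 at 37.7 and 37.0 TPM and Ccne1 at 28.7 and 28.8 TPM. E2f1, an activator of the family named above, was at 31.4 and 28.2 TPM.

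Gene TPM sums all annotated transcripts, including forms without the full coding sequence. The protein-coding label is that of the annotation and also covers short forms. Whether these hold the full coding sequence was not checked, so coding levels and shares need not stand for full-length message. Over the 47 genes together, protein-coding transcripts took 81.9% ± 0.19 of TPM, retained introns 14.4% ± 0.21 and transcripts marked for nonsense-mediated decay 3.03% ± 0.02. In 26 genes the coding share was at least 90% in both libraries, and the median over genes was 92.1%, against 91.0% over detected coding genes. It was under 50% in both libraries in Rfc2, Tyms, Gins2 and Rfc1. That is 4 of 47, and 9.76% of detected coding genes were likewise below 50%.

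**Figure D4:**
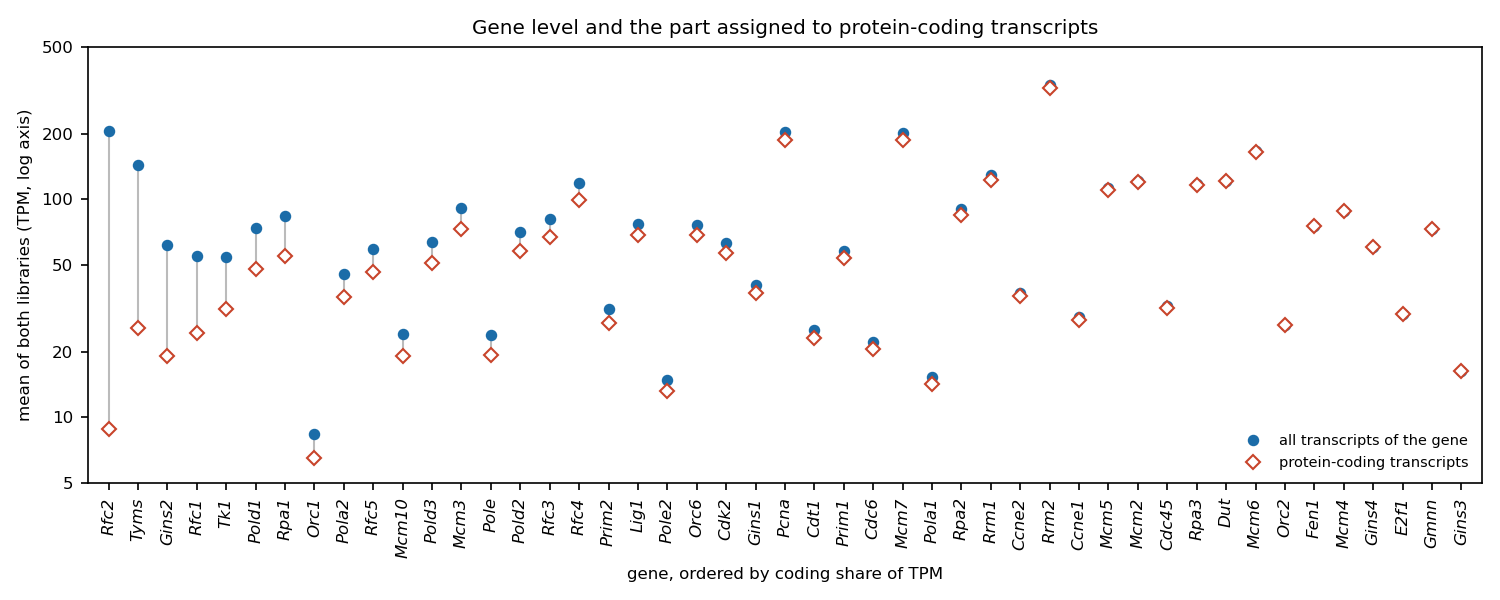
Mean level of each gene over both libraries in TPM on a log axis, for all transcripts (filled circles) and for protein-coding transcripts (open diamonds), ordered by coding share. Rfc2 (206 against 8.86 TPM) and Tyms (143 against 25.7 TPM) stand apart at the left.

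Rfc2 (ENSMUSG00000023104.9, chromosome 5, plus strand) was the clearest case. Its coding transcript Rfc2-201 had 8.75 TPM in replicate 1 and 8.97 TPM in replicate 2, or 4.31% of the gene, while the retained-intron transcripts Rfc2-204 (91.8 and 98.0 TPM) and Rfc2-205 (63.65 and 66.7 TPM) took most of the rest. By counts the coding share was larger, 22.7%, because TPM divides by length: Rfc2-201 is annotated with 4995 bases in M21 and Rfc2-204 with 831. In the older annotation M4 the transcript with counts was Rfc2-201, with 1518 bases, and that transcript held the gene's whole level of 126 TPM in replicate 1 and 130 TPM in replicate 2. In M21 Rfc2 was therefore first among the loader subunits by gene TPM and last by coding transcripts, where the order was Rfc4, Rfc3, Rfc5, Rfc1, Rfc2.

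Tyms was spread over many forms in both annotations. The leading transcript Tyms-205, marked for nonsense-mediated decay, took 30.7% of the gene in replicate 1 and 33.8% in replicate 2, and the longest coding Tyms-201 took 9.14% and 9.78%. Its coding transcripts together had 29.7 TPM in replicate 1 and 21.8 TPM in replicate 2, and the coding share was 17.9% by TPM and 27.4% by counts. Under M4 it was 10.2% by TPM.

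In Gins2 the retained-intron transcript Gins2-204, of 511 bases, took 58.8% of TPM in replicate 1 and 63.5% in replicate 2, but the coding Gins2-201, of 3900 bases, took most counts, and the coding share was 31.1% by TPM and 73.7% by counts. Rfc1 was alike, with Rfc1-205, a retained intron of 485 bases, at 54.6% and 55.4% of TPM and a coding share of 44.5% by TPM and 89.8% by counts. So in these genes the short transcript weighed more in TPM than in reads.

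No transcript reached 50% of the gene, as the mean of both libraries, in Pole, Fen1, Lig1, Rfc2 and Tyms, 10.6% of the 47 against 25.1% of detected coding genes. Pole-201 led Pole, the catalytic subunit of polymerase epsilon, at 49.2% in replicate 1 and 40.95% in replicate 2. Fen1-201 led Fen1 at 43.3% and 37.9%. Lig1 was the only gene whose leading transcript differed between libraries, Lig1-201 in replicate 1 (36.8%, against 29.0% in replicate 2) and Lig1-206 in replicate 2 (37.3%, against 32.5% in replicate 1). Both are annotated as protein-coding, though Lig1-206 has 944 bases and Lig1-201 has 3091. Pole2-202 held 25.8% of Pole2 in replicate 1 and was listed at 0 in replicate 2, where Pole2-201 took 87.5%. Over the 47 genes the leading share differed between libraries by a median of 1.88 percentage points, against 2.70 over detected coding genes.

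Gene levels depended little on the annotation. The higher of the M21 and M4 levels exceeded the lower by over 25% in 2 of the 47 genes (4.26%), against 11.2% of 12895 detected coding genes found in both. They were Rfc2, 1.61 times higher under M21, and Orc6, 1.28 times higher. Their counts were close under both annotations, while the effective length of Rfc2 in replicate 1 was 930 bases under M21 and 1419 under M4, and that of Orc6 was 1168 and 1536 bases.

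Between the pools the genes differed about as little as other genes of their abundance. Ratios are replicate 1 over replicate 2, from counts after TMM scaling, with 95% Clopper-Pearson intervals that cover counting error only. Each pool gave 1 library, so the pools cannot be tested against each other. The log2 ratios ran from -0.27 to 0.18, and none reached 2-fold with an interval excluding equality, a rule met by 4.23% of the 19885 genes tested. The median absolute log2 ratio was 0.07, against 0.14 over all genes tested and 0.08 over the 9830 genes in the same range of counts.

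**Figure D5:**
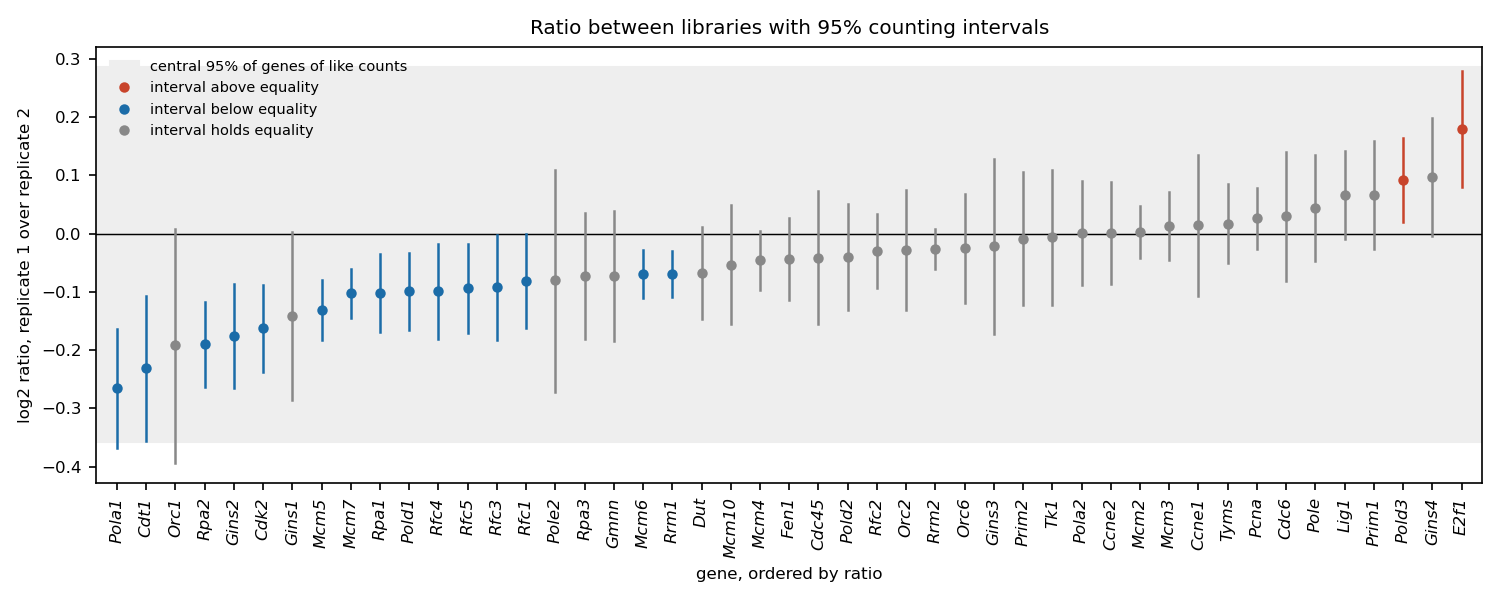
Log2 ratio of each gene, replicate 1 over replicate 2, with 95% counting intervals; the grey band holds the central 95% of genes in the same range of counts. E2f1 (0.18) is highest and Pola1 (-0.27) lowest, and 33 of the 47 lie below equality.

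The direction leaned to replicate 2. An interval wholly above equality, higher in replicate 1, was found for 2 of the 47 genes (4.26%), against 15.5% of all genes tested and 21.5% of those in the same range of counts. An interval wholly below equality, higher in replicate 2, was found for 15 (31.9%), against 16.7% and 20.1%. The 2 were E2f1, 0.18 on the log2 scale (95% interval 0.08 to 0.28), and Pold3, 0.09 (0.02 to 0.16). Scaling to ERCC spike-in totals shifted genes at large, with a median log2 ratio of -0.28 over all genes tested and -0.31 over the 47. Under it both signs turned, 0 of the 47 were higher in replicate 1, against 2.14% of all genes tested and 0.895% of those in the same range of counts, and 46 (97.9%) were higher in replicate 2, against 60.7% and 89.3%.

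The 15 came from 8 of the 9 role groups, all but Okazaki fragment maturation. Pola1 was lowest at -0.27 (-0.37 to -0.16), and Cdt1 followed at -0.23 (-0.36 to -0.11). Rpa2 stood at -0.19 (-0.26 to -0.12), Gins2 at -0.18 (-0.27 to -0.09), Cdk2 at -0.16 (-0.24 to -0.09) and Mcm5 at -0.13 (-0.18 to -0.08). The others were Mcm6, Mcm7, Rpa1, Pold1, Rfc1, Rfc3, Rfc4, Rfc5 and Rrm1, with log2 ratios from -0.10 to -0.07. By role group these were 3 of 6 MCM genes, 4 of 6 clamp and loader genes, 2 of 3 RPA genes, 2 of 9 polymerase genes, 1 of 6 licensing genes, 1 of 6 helicase activation genes, 1 of 5 nucleotide supply genes, 1 of 4 regulators and 0 of 2 maturation genes.

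Markers of other tissue components were read by the same rule, an interval wholly on one side of equality. Over all genes tested 15.5% were higher in replicate 1 and 16.7% in replicate 2 by that rule. The 1 of 5 given below for microglia and macrophage markers lies near that share. Of 6 mesenchyme markers 5 were higher in replicate 2, their summed level being 901 TPM in replicate 1 and 1278 TPM in replicate 2, and of 6 neuron markers 5 were higher in replicate 1, with sums of 1733 and 1645 TPM. Endothelial markers were higher in replicate 2 in 4 of 5 cases and in replicate 1 in 1, with sums of 80.5 and 89.7 TPM. Midbrain markers did likewise, 4 of 5 higher in replicate 2 and 1 in replicate 1, with sums of 196 and 204 TPM. Erythroid markers were higher in replicate 2 in 3 of 6 cases and in replicate 1 in none, with sums of 8569 and 9901 TPM, and microglia and macrophage markers in 1 of 5 and none, with sums of 40.8 and 44.7 TPM. No marker was at 0 in either library. Progenitor markers, with sums of 2681 and 2706 TPM, were higher in replicate 1 in 3 cases and in replicate 2 in 2. The part of these differences in the ratios above was not tested.

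A pair of these ratios touches an overlapping gene. The annotated read-through gene Gm20388 covers Cdt1 on its strand and Gins2 on the other, and received 64.4 counts in replicate 1 and 0 in replicate 2. With its counts added, the log2 ratio of Cdt1 was -0.13 (-0.25 to -0.01) and that of Gins2 -0.12 (-0.21 to -0.03). The same counts were added in full to each gene in turn, so these values are limits and not corrected ratios.

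The pathway lists around these genes were detected in full. The median of 28 other replication factors was 35.6 TPM in replicate 1 and 34.2 TPM in replicate 2, from the fork protection factor Tipin (155 and 158 TPM) to the helicase Recql4 (6.90 and 7.11 TPM). On the log2(TPM + 0.1) scale the 47 genes lay 0.93 ± 0.06 above them. The 18 other nucleotide enzymes had a median of 36.8 and 39.0 TPM, with the purine enzyme Paics (220 and 233 TPM) at the top and Rrm2b at the bottom. Of the 14 other G1/S regulators, cyclin A2 (Ccna2, 155 and 162 TPM) was highest and E2f2 (7.62 and 8.36 TPM) lowest. Chromatin factors that work at the fork had a median of 69.8 TPM in replicate 1 and 70.75 TPM in replicate 2, from the histone chaperone Nasp (185 and 179.9 TPM) to Chaf1a (26.4 and 25.5 TPM), a subunit of the chromatin assembly factor.

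Mitosis genes stood higher than the replication genes. Their median was 96.3 TPM in replicate 1 and 101 TPM in replicate 2, from topoisomerase Top2a (238 and 239 TPM) to the kinetochore motor Cenpe (27.0 and 26.5 TPM), and the gap of the 47 genes to them was -0.57 ± 0.03 on the log2(TPM + 0.1) scale. Neuron markers had a median of 218 and 204 TPM, and the gap to them was -1.56 ± 0.09. None of the 90 genes of the pathway lists reached a 1.5-fold ratio between the libraries beyond counting error.

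Several of the 47 genes share their start region with a neighbour. A gene on the opposite strand began within 1000 bases upstream of 12 of them (25.5%), against 15.4% of detected coding genes, and the neighbour was protein-coding for 6 (12.8%), against 9.98%. Orc1 starts 87 bases from Prpf38a, a splicing factor gene, and was far below it, at 8.12 and 8.68 TPM against 73.3 and 83.7 TPM. Mcm4 starts 466 bases from Prkdc, which encodes the catalytic subunit of DNA-dependent protein kinase, and was far above it, at 86.9 and 90.01 TPM against 7.91 and 7.61 TPM. Rpa1 and Smyd4 (12.66 and 12.76 TPM) start 109 bases apart, Rpa3 and Umad1 (24.5 and 23.3 TPM) 115, Pole and Pxmp2 (7.63 and 8.74 TPM) 120, and Gins1 and Abhd12 (45.4 and 51.35 TPM) 659. Gins1 and Abhd12 were the only such pair in which the partners stood within 25% of each other in both libraries.

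Reads of some genes can be shared with others. In 19 of the 47 genes the gene body overlaps another gene with at least 10 counts in a library, and the counting strand is not given in the sources used here. Stretches of at least 400 bases with 95% identity or more were found elsewhere in the genome for 6 genes, in the processed pseudogenes Gm9430 (of Cdc6), Gm5487 (of Mcm7), Pcna-ps2, Gm12870 (of Rfc5), Gm48455 (of Rrm2) and Tyms-ps. None of these copies exceeded 1.57 TPM in a library. Identical stretches also lay in genes that overlap on the other strand. For Gins2 the stretch was 2758 bases in Gse1 (20.2 and 22.5 TPM), and for Rfc5 499 bases in Wsb2 (87.15 and 88.8 TPM). Ccne2 with Ints8 and Orc2 with Nif3l1 were alike. Lat2 beside Rfc2 (2.73 and 2.65 TPM) and Gm10143 beside Fen1 (4.37 and 4.74 TPM) were lower. How reads were divided between these pairs was not tested.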

How the data were processed

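Polyadenylated RNA was measured in 2 libraries of 1 group. For each, the authors deposited gene and transcript tables against GENCODE M21 and M4 on mm10, per the manifests beside them. Per the file headers, the deposited values are expected counts (estimated reads, not scaled), TPM, FPKM and, for transcripts, the percent of the gene. Column names match RSEM output, and neither the aligner, the counter nor the strand setting is given in the sources used here.

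M21 was the main annotation. Rows that name no gene, almost all ERCC spike-ins, took 4.02% of counts in replicate 1 and 3.38% in replicate 2 and stayed out of library sizes. Levels are deposited TPM, and a gene with 1 TPM or more in each library counts as detected. Gaps between lists are on log2(TPM + 0.1), a scale that shrinks differences of low genes. Coding levels summed the TPM of transcripts annotated as protein-coding, whatever their length.

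Ratios used expected counts rounded to whole numbers, TMM factors (edgeR 4.0.16, R 4.3.3) and Clopper-Pearson 95% intervals (scipy 1.17.1), where either library had 10 counts or more. Reads without molecular identifiers are not independent molecules, so intervals cover counting error only. No p-value was computed. Ratio code was tested on simulated data. Copies were sought with blastn 2.17.0 among M21 transcripts; their length limit of 400 bases was set after repeats had been seen at a shorter one. Alternatives were DESeq2 1.42.0 size factors, total and ERCC scaling, other count minimums, pseudocounts and motif forms, M4, and each library alone.

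The members and all lists were chosen with earlier results of these data known. The rule named every member, the highest and lowest gene of each other list, complex partners and paralogs of members, and transcripts of genes led by a minor or noncoding form. Protein sequences and the promoters of 9 members were not analysed here.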

Additional observations from a re-analysis of the deposited data

How the results depend on the processing

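All 47 genes stayed detected at limits of 0.5 and 5 TPM, under M4 and in each library alone. Their median level was 66.5 TPM, from 65.9 to 67.0 TPM with a library left out. It was 83.9 TPM when rescaled over nuclear protein-coding genes, 73.0 TPM from rescaled FPKM and 51.2 TPM over protein-coding transcripts, the last chosen after seeing the data. The first 2 change the total that TPM is divided by. Scaling to ERCC totals moved the median log2 ratio to -0.31, the genes higher in replicate 1 to 0 and those higher in replicate 2 to 46 (97.9%, against 89.3% of genes in the same range of counts), with E2f1 at -0.090 and Pold3 at -0.18; the cause was not tested. Genes higher in replicate 2 numbered 13 with DESeq2 size factors, where the intervals of Rfc1 and Rfc3 held equality. They numbered 14 under M4, where the interval of Rfc1 held equality, and 19 with total-count scaling. The matching shares of all genes tested were not computed under these settings. Those counts therefore cannot set the 47 genes apart from genes at large. None of the 47 genes reached 2-fold under the scalings, minimums and annotations tried. The log2 gap to the mitosis list was -0.62 under M4 and -0.49 over coding transcripts, and ran from -0.59 to -0.54 with a library left out. The gap to neuron markers was -1.73 over coding transcripts and ran from -1.62 to -1.50, and that to other replication factors from 0.89 to 0.97. Both pools share a strain, a dissection and a laboratory as labelled, only 2 libraries exist, and transcript shares rest on a model that divides shared reads. No paired analysis was possible because there is 1 group.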

Other observations

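Besides the coding neighbours, 6 genes began close to a noncoding gene on the opposite strand. The nearest was 1700001G17Rik, 29 bases from Prim2, at 1.83 TPM in replicate 1 and 1.72 TPM in replicate 2. Gm15834, 39 bases from Orc2, stood at 0.45 and 0.72 TPM. AV099323, 43 bases from Pcna, stood at 2.15 and 1.75 TPM, and 6330408M09Rik, 56 bases from Rfc4, averaged 1.39 ± 0.19 TPM (SD, n = 2). Gm15728, 92 bases from Rfc5, had 1.36 and 1.22 TPM, and Gm10614, 227 bases from Gins2, had 0.37 and 0.35 TPM. All 6 stood far below the replication gene beside them, whose mean ran from 26.6 TPM for Orc2 to 204 TPM for Pcna. Their counts were low, between 17 and 56 in a library, and the interval of each log2 ratio between the libraries held equality.

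The 23 genes with an E2F-type match had a median level of 75.4 TPM and the 15 with a window and no match one of 59.0 TPM, each a mean of both libraries. Among the 38 genes with a window, 15 held both an E2F-type match and a CCAAT box, and 7 held neither. Those 7 were Dut, Tyms, Tk1, Rfc5, Pola2, Ccne1 and E2f1, so that 3 of the 5 nucleotide supply genes were among them. The windows of Dut and E2f1 lay wholly inside the M21 gene body, so sequence before the 5′ end of both genes was not read.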
